A study of Mus musculus with 12 samples.

Results

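Marginal zone type B cells were spleen B cells that carried RNA of at least 2 of the 4 genes Myof, S1pr3, Cd1d1 and Cd9. They were taken from cells that the authors annotated as B, and cells with 2 or more of the genes Tbx21, Itgax, Cxcr3 and Fcer1g, which mark age-associated B cells, were left out. The rule gave 637 cells of 11450 annotated B cells and of 22285 cells in all. By mouse these were 57 cells in SLE.yaa 1 and 32 in SLE.yaa 2, against 235 in WT 1 and 313 in WT 2. They are set beside 10514 other B cells, which carried fewer than 2 genes of either set.

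The series profiled spleen cells of 4 male mice, with 2 mice in each group. One group, SLE.yaa, was B6.Sle1yaa: its mice have the lupus-prone Sle1 segment of chromosome 1, and their Y chromosome bears Yaa, a second set of distal X genes with Tlr7 among them. The other, WT, was C57BL/6 and has neither. CD45+ cells were enriched with magnetic beads and went into 10x Genomics droplets, and each mouse gave an expression, a B cell receptor and a T cell receptor library. The deposited age was 14.86 in SLE.yaa mice and 14.43 in WT mice with no unit. The group names stand under a label headed chimera condition, and no source used here says if bone marrow had been transferred.

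Marginal zone B cells sit at the border of the splenic white pulp, where blood flows past them. In mice they are known for high complement receptor CD21 (gene Cr2) and CD1d, low CD23 (Fcer2a) and low surface IgD. Their development needs Notch2 signals through the ligand Delta-like 1, sphingosine phosphate receptors hold them in place, and they answer blood-borne antigens quickly, mostly as IgM without help from T cells.

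The cells were among the deeper ones. Their median UMI count was 6685 and 6473.5 in the SLE.yaa mice and 5137 and 5516 in the WT mice, above the other B cells of the same mouse in 4 of 4 mice (4627.5 and 4410, against 3132.5 and 3283). Deposited values are already adjusted for depth. Doublets were not called here. T cell receptor chains were recorded for 0 and 0 of the cells in SLE.yaa mice and for 0 and 3 in WT mice, and 12 of the 637 cells share a barcode sequence with a cell of another library.

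The cells made up 2.31% and 1.30% of annotated B cells in SLE.yaa mice, against 7.51% and 9.20% in WT mice. Exact 95% intervals were 1.76 to 2.99% and 0.894 to 1.84% in SLE.yaa mice, against 6.61 to 8.49% and 8.25 to 10.2% in WT mice, for counting error only. Both SLE.yaa mice lay below both WT mice. In this count, fewer cells of the type and less RNA of the 4 genes per cell cannot be told apart. These shares are a description and were not tested, because the 4 genes that choose the cells were measured in the same cells and differ between the groups.

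Marginal zone type cells of SLE.yaa mice also carried fewer of the 4 genes per cell. Exactly 2 of the 4 genes were found in 91.2% and 87.5% of the cells in SLE.yaa mice, against 59.1% and 57.2% in WT mice. With 3 or 4 genes there were 5 and 4 cells in SLE.yaa mice, against 96 and 134 in WT mice, or 0.203% and 0.163% of annotated B cells against 3.07% and 3.94%. At a matched depth of 2000 to 6000 UMIs the share of all marginal zone type cells was 1.16% and 0.795% in SLE.yaa mice, against 5.76% and 6.65% in WT mice. The groups did not overlap in any of these shares.

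As levels, the genes of the rule are given without a test. Myof, a membrane repair protein, was above 0 in 42.1% and 37.5% of marginal zone type cells in SLE.yaa mice, against 63.8% and 61.3% in WT mice. S1pr3, a sphingosine phosphate receptor, was above 0 in 49.1% and 43.8% in SLE.yaa mice, against 49.4% and 55.0% in WT mice. Cd1d1, which presents lipids, was above 0 in 71.9% and 75.0% in SLE.yaa mice, against 74.5% and 74.8% in WT mice, and the tetraspanin Cd9 in 47.4% and 59.4%, against 61.3% and 61.0% in WT mice. Myof held the widest gap between the groups. Among T cells, whose median UMI count was 4716.5 and 3913.5 in SLE.yaa mice, against 4426 and 4929 in WT mice, Myof was above 0 in 0.224% and S1pr3 in 0.269%, while Cd1d1 was above 0 in 12.1% and Cd9 in 24.1%. Cd1d1 and Cd9 are found outside B cells far more often than the other 2 genes.

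**Figure D1:**
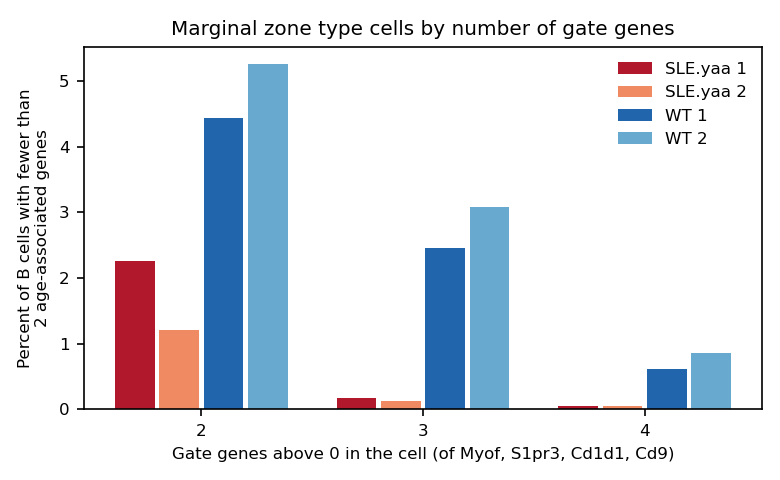
Percent of annotated B cells with fewer than 2 age-associated genes (vertical axis) that carried 2, 3 or 4 of Myof, S1pr3, Cd1d1 and Cd9 (horizontal axis), 1 bar per mouse. Both SLE.yaa mice are below both WT mice in each class, and cells with 3 or 4 genes number 5 and 4 in SLE.yaa mice against 96 and 134 in WT mice.

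The label was checked on Cr2 and Fcer2a, which the rule did not use. Cr2 was above 0 in 70.2% and 50.0% of the cells in SLE.yaa mice, against 91.9% and 93.0% in WT mice, and in 2.98% of T cells, which should lack it. Fcer2a was above 0 in 42.1% and 31.3% of the cells in SLE.yaa mice, against 20.9% and 19.5% in WT mice, and in 3.47% of T cells. In WT mice the cells showed the high Cr2 and low Fcer2a of marginal zone B cells, while in SLE.yaa mice both genes lay nearer to the other B cells (Cr2 in 46.1% and 45.1%, Fcer2a in 70.9% and 59.2% of other B cells of SLE.yaa mice). As a log2 ratio of mean levels over other B cells, Cr2 stood at 0.86 and 0.43 in SLE.yaa mice, against 1.36 and 1.38 in WT mice. At 2000 to 6000 UMIs (19 and 14 cells in SLE.yaa mice) the gap was smaller, at 1.28 and 1.14, against 1.61 and 1.45 in WT mice. Fcer2a there stood at −1.34 and −0.66 in SLE.yaa mice, against −2.24 and −2.88 in WT mice. The name is kept for the rule, and it fits the cells of SLE.yaa mice less well than those of WT mice.

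Cells just inside the rule differed from those just outside it in the same 2 genes. Among the 398 cells with exactly 2 of the genes, Cr2 was above 0 in 83.9% and Fcer2a in 28.9%. Among the 1950 cells with exactly 1, Cr2 was above 0 in 59.0% and Fcer2a in 58.5%. Cells with 3 or 4 genes stood further away, with Cr2 in 95.8% and Fcer2a in 12.1%. In cells with exactly 2 genes, Cr2 was above 0 in 69.2% and 46.4% in SLE.yaa mice, against 88.5% and 90.5% in WT mice, so the gap between the groups was also there at an equal number of genes.

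Expression levels below are in vpm: the depth-adjusted values averaged over the cells of a mouse and scaled to a sum of 1000000. Log2 changes are of vpm plus 10, which understates changes of low genes. The other B cells were chosen by the same rule, so differences between the 2 populations are described and not tested.

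The genes highest in marginal zone type cells over other B cells, outside those of the rule, held several known marginal zone genes. They were Rgs10, a brake on G protein signals (mean log2 ratio over 4 mice 1.90), the actin-binding Nebl (1.88), the ubiquitin ligase subunit Asb2 (1.80), the membrane semaphorin Sema7a (1.70), Fcrl5, an Fc receptor-like protein of marginal zone and B-1 cells (1.69), and Dph5 (1.64). Tbc1d9 (1.61), the phospholipase Pla2g7 (1.58), the Notch target Dtx1 (1.57) and the scavenger receptor Cd36 (1.54) followed. Each was higher in marginal zone type cells of 4 of 4 mice. Rgs10 stood at 54.4 and 55.8 vpm in marginal zone type cells of SLE.yaa mice and 144 and 149 vpm in those of WT mice, against 15.6 to 18.7 vpm in other B cells of the 4 mice.

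The genes lowest in marginal zone type cells included those of recirculating follicular cells. Klf2, a transcription factor that keeps lymphocytes recirculating (−1.97), Fcer2a (−1.86), Bach2, a repressor of plasma cell fate (−1.55), and Ighd, the constant region of IgD (−1.49), were among them, with the filament gene Vim (−1.65). Globin genes Hbb-bs (−3.07) and Hba-a1 (−2.42), the switched constant regions Igha (−2.27) and Ighg2c (−1.58) and the neutrophil gene S100a9 (−1.52) made up the rest. Klf2 stood at 333 and 385 vpm in marginal zone type cells of SLE.yaa mice and 149 and 125 vpm in those of WT mice, against 967 and 832 vpm in other B cells of SLE.yaa mice and 842 and 968 vpm in those of WT mice. The step down was smaller in SLE.yaa mice (−1.51 and −1.09) than in WT mice (−2.42 and −2.85).

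Between SLE.yaa and WT mice, marginal zone type cells differed in 16 of 8550 genes tested (0.187%), with 13 higher (0.152%) and 3 lower (0.0351%) in SLE.yaa mice, by limma on the 4 mice with Benjamini-Hochberg adjusted p under 0.05. At an unadjusted p under 0.05 there were 867 genes (10.1%), 345 higher and 522 lower. The 16 genes shared 1 adjusted p, 0.0438, close to the threshold. In the other B cells of the same mice 273 of 7865 genes passed (3.47%). With a pseudocount of 1, with no filter on low values, without cells carrying an age-associated gene, at 2000 to 6000 UMIs, without cells holding genes of other cell types or with Fcer2a at 0, no gene passed (738 to 1284 at an unadjusted p under 0.05), and with no scaling factors 1 did.

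Cr2, the complement receptor CD21 on chromosome 1 (195136811 to 195176880 in GRCm38.p6), was the marginal zone gene that fell. It stood at 416 and 315 vpm in SLE.yaa mice, against 1250 and 1179 vpm in WT mice. Both SLE.yaa mice lay below both WT mice (log2 change −1.72, SE 0.16, adjusted p = 0.0438). Cr2 lies in the Sle1 interval and is known to differ in sequence between the strains of that interval and C57BL/6, and an effect of this on read mapping was not tested. In other B cells Cr2 also fell (−0.94, adjusted p = 0.000563), and the difference between the changes did not pass (−0.73, limma adjusted p = 0.208).

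None of the other genes of the marginal zone list passed, and their direction was shared. Of 11 genes outside the rule, Cr2 among them, 0 had a positive log2 change. At an unadjusted p under 0.05, 8 were lower (all genes 6.11%), and 10 showed no overlap between the groups (all genes 42.2% in either direction). Exactly 2 rule genes were found in 91.2% and 87.5% of the cells in SLE.yaa mice, against 59.1% and 57.2% in WT mice, and Cr2 and Fcer2a varied with that number. How far this unlike mix enters the changes of the marginal zone and follicular lists was not tested. The list's median was −0.74, against −0.07 over all genes. Tm6sf1 stood at 155 and 131 vpm in SLE.yaa mice, against 295 and 285 vpm in WT mice (−0.98, adjusted p = 0.103). Asb2 stood at 30.9 and 19.7 vpm in SLE.yaa mice, against 59.5 and 74.6 vpm in WT mice (−1.14, adjusted p = 0.245). The chemokine scavenger Ackr3 stood at 10.3 and 13.1 vpm in SLE.yaa mice, against 38.6 and 51.3 vpm in WT mice (−1.33, adjusted p = 0.219). In each of these the SLE.yaa mice lay below the WT mice. Plac8, at 1004 and 702 vpm in SLE.yaa mice, against 1585 and 1256 vpm in WT mice, had a log2 change of −0.74. Cnr2, the cannabinoid receptor that helps to retain these cells, overlapped between the groups (79.1 and 85.3 vpm in SLE.yaa mice, against 89.3 and 83.2 vpm in WT mice).

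Genes of follicular B cells mostly lay the other way, without passing the test. Of 8 genes, 7 had a positive log2 change, with a median of 0.40, and 4 were higher and 1 lower at an unadjusted p under 0.05. Over all genes, 3624 of 8550 changes were positive, 4.04% were higher and 6.11% lower. Fcer2a stood at 182 and 158 vpm in SLE.yaa mice, against 97.0 and 80.1 vpm in WT mice (0.87, adjusted p = 0.219). Ighd stood at 361 and 676 vpm in SLE.yaa mice, against 296 and 219 vpm in WT mice (0.93, adjusted p = 0.379). The groups did not overlap in these 2 genes. In cells with 3 or 4 rule genes, 9 of them in SLE.yaa mice, Fcer2a had a log2 change of −0.64, where the median of all genes was −0.73. Cxcr5, the receptor for the follicle chemokine, was the gene with a negative change (−0.50, adjusted p = 0.433).

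**Figure D2:**
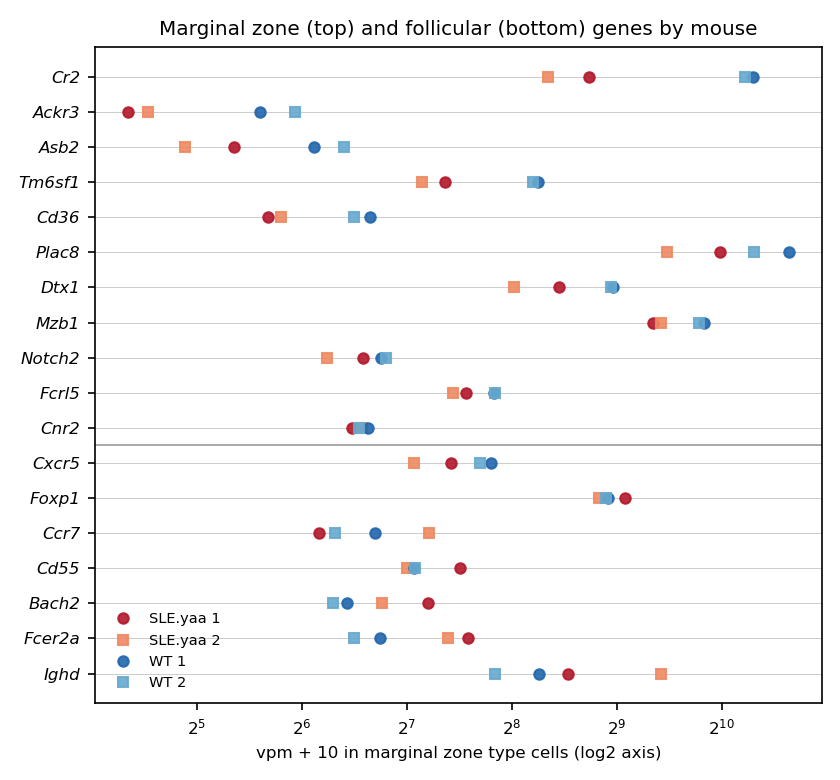
Level of 11 marginal zone genes outside the rule (above the line) and 7 of the 8 follicular genes (below it) in marginal zone type cells, as vpm plus 10 on a log2 axis, 1 point per mouse. Both SLE.yaa mice lie left of both WT mice in 10 of the 11 marginal zone genes, Cr2 furthest at 416 and 315 vpm in SLE.yaa mice against 1250 and 1179 vpm in WT mice, and right of them in Fcer2a, Ighd and Bach2.

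Notch signalling specifies these cells, and 0 of its 13 tested genes passed. Their median log2 change was −0.21, with 3 lower and 0 higher at an unadjusted p under 0.05 (all genes −0.07, 6.11% lower and 4.04% higher). These 3 were targets of the pathway: Hes5 stood at 24.1 and 19.7 vpm in SLE.yaa mice, against 62.8 and 52.9 vpm in WT mice (−1.09, adjusted p = 0.240). Hes1 stood at 44.7 and 45.9 vpm in SLE.yaa mice, against 87.1 and 80.8 vpm in WT mice (−0.76, adjusted p = 0.287), and Dtx1 at 340 and 249 vpm in SLE.yaa mice, against 488 and 482 vpm in WT mice (−0.72, adjusted p = 0.246). The receptor Notch2 had a log2 change of −0.37 (adjusted p = 0.590).

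Among 18 tested genes of positioning and adhesion, 1 passed (all genes 0.187%). Klf2 rose to 358 and 407 vpm in SLE.yaa mice, against 165 and 138 vpm in WT mice, with no overlap (1.28, SE 0.16, adjusted p = 0.0438). In other B cells its log2 change was −0.02 (adjusted p = 0.977), and the difference between the changes missed the threshold (1.34, limma adjusted p = 0.0765). S1pr1, the sphingosine phosphate receptor that draws lymphocytes to blood and marginal zone, stood at 172 and 72.2 vpm in SLE.yaa mice, against 306 and 273 vpm in WT mice (−1.29, adjusted p = 0.281). The integrin subunits Itgb1 (0.76) and Itgb7 (0.92) did not pass, and the list's median was 0.03 (all genes −0.07).

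Serpine2 and Marcks were the other genes that fell. Serpine2, a serine protease inhibitor, stood at 3.44 and 0 vpm in SLE.yaa mice, against 54.0 and 73.9 vpm in WT mice (−2.66, adjusted p = 0.0438). It was above 0 in 1 of 57 and 0 of 32 cells in SLE.yaa mice, against 39 of 235 and 77 of 313 cells in WT mice, so its level in SLE.yaa mice rests on 1 depth-adjusted count. Over pooled cells it was 29.4-fold higher in WT mice (counting interval 5.19 to 1169, which treats depth-adjusted counts within a cell as independent). Marcks, an actin-binding substrate of protein kinase C, stood at 131 and 131 vpm in SLE.yaa mice, against 335 and 379 vpm in WT mice (−1.38, SE 0.15, adjusted p = 0.0438). It was above 0 in 36.8% and 46.9% of cells in SLE.yaa mice, against 73.2% and 75.7% in WT mice. In other B cells Marcks also fell (−0.89, limma adjusted p = 0.000468).

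Genes of activation and early response were among those that rose, all by limma with the adjusted p of 0.0438. Jun, a subunit of the transcription factor AP-1, rose to 103 and 85.3 vpm in SLE.yaa mice, against 14.3 and 12.4 vpm in WT mice (2.15, SE 0.25). Cd83, a surface protein of activated B cells, rose to 268 and 223 vpm in SLE.yaa mice, against 89.3 and 80.8 vpm in WT mice (1.42, SE 0.18). Cd83 was above 0 in 64.9% and 53.1% of cells in SLE.yaa mice, against 21.7% and 19.8% in WT mice. Its log2 change was 0.60 (adjusted p = 0.628) in cells with 3 or 4 rule genes and 2.05 (adjusted p = 0.324) at 2000 to 6000 UMIs. In other B cells Jun rose by 1.20 (adjusted p = 4.42e-05) and Cd83 by 0.62 (adjusted p = 0.0197). The 14 tested early response genes had a median of 0.45 (all genes −0.07). At the adjusted threshold 2 were higher and 0 lower (all genes 0.152% and 0.0351%), and these 2 were Jun and Cd83. Jund, another AP-1 subunit, stood at 406 and 512 vpm in SLE.yaa mice, against 230 and 174 vpm in WT mice (1.15, adjusted p = 0.111).

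Zeb2, a transcription factor of age-associated B cells, rose to 199 and 217 vpm in SLE.yaa mice, against 58.4 and 77.0 vpm in WT mice (1.5, SE 0.19, adjusted p = 0.0438). It was above 0 in 49.1% and 37.5% of cells in SLE.yaa mice, against 19.1% and 25.6% in WT mice, although cells with 2 or more of the 4 age-associated genes had been left out. Cells with 1 of these genes stayed in, and without them the log2 change of Zeb2 was 1.15 (adjusted p = 0.364). It was 0.31 (adjusted p = 0.678) in cells with 3 or 4 rule genes and 0.89 (adjusted p = 0.531) at 2000 to 6000 UMIs. In other B cells Zeb2 rose by 1.26 (adjusted p = 0.000168). It was the 1 of 5 tested genes of the age-associated list that passed (all genes 0.187%). Fas (1.03) and Ly6c2 (1.07) reached the filter of 10 vpm only through the SLE.yaa mice, so their direction is not read as a result. Cd86 (−0.29, groups overlapping) and Fcrl5 (−0.33) had negative log2 changes and did not pass.

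Among genes of innate immunity and metabolism, Cfp, which encodes properdin of the alternative complement pathway, rose to 172 and 177 vpm in SLE.yaa mice, against 52.9 and 38.9 vpm in WT mice (1.73, SE 0.20). In cells with 3 or 4 rule genes the log2 change of Cfp was 0.36 (adjusted p = 0.829), and at 2000 to 6000 UMIs it was 0.47 (adjusted p = 0.802). Blvrb, biliverdin reductase B, rose to 234 and 210 vpm in SLE.yaa mice, against 79.3 and 69.2 vpm in WT mice (1.46, SE 0.17). Il4i1, a secreted amino acid oxidase, rose to 196 and 177 vpm in SLE.yaa mice, against 66.1 and 68.4 vpm in WT mice (1.35, SE 0.17). In other B cells Cfp rose by 1.14 (limma adjusted p = 0.00418) and Blvrb by 1.02 (adjusted p = 0.00144). There Il4i1 rose by 0.49 (adjusted p = 0.0264). The direction of Il4i1 was not stable: it was −1.39 in cells with 3 or 4 rule genes (all genes −0.73) and −0.31 at 2000 to 6000 UMIs (all genes −0.23), and in SLE.yaa 1 a single cell held 38.6% of its total. Lgals1, the lectin galectin-1, rose to 107 and 210 vpm in SLE.yaa mice, against 17.6 and 10.1 vpm in WT mice (2.76, SE 0.34), and at 2000 to 6000 UMIs its log2 change was 0.61. In other B cells the log2 change of Lgals1 was 0.34 (limma adjusted p = 0.162). It is a T cell gene too, above 0 in 64.6% and 77.3% of T cells of SLE.yaa mice, against 38.2% and 39.6% of those of WT mice.

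**Figure D3:**
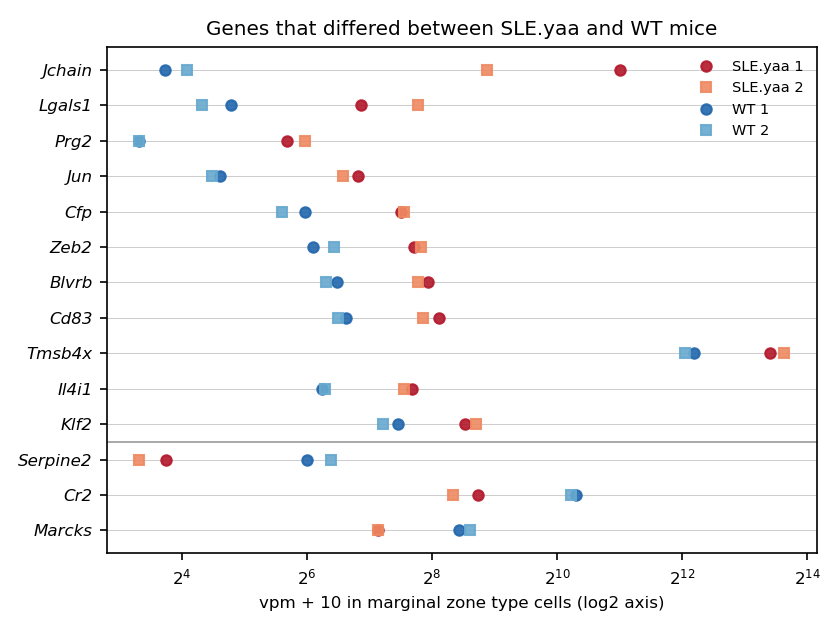
Level of the 14 genes named among those past the threshold, in marginal zone type cells, as vpm plus 10 on a log2 axis, 1 point per mouse. Genes above the line were higher and genes below it lower in both SLE.yaa mice than in both WT mice, with Jchain resting on 1 cell in each SLE.yaa mouse.

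The largest change rested on few cells. Jchain, which joins IgM and IgA multimers and marks plasma cells, stood at 2046 and 459 vpm in SLE.yaa mice, against 3.31 and 7.0 vpm in WT mice (6.03, SE 0.59, adjusted p = 0.0438). A single cell held 98.0% of its total in SLE.yaa 1 and 87.1% in SLE.yaa 2. Jchain was above 0 in 21.1% and 9.38% of cells in SLE.yaa mice, against 1.28% and 0.958% in WT mice, and in 21.3% and 9.46% of T cells of SLE.yaa mice, against 0.723% and 0.570% of T cells of WT mice. The shares in SLE.yaa mice were close to those in T cells of the same mice, which should lack the gene, so they are not read as expression, and the source of this RNA was not tested. At 2000 to 6000 UMIs the log2 change of Jchain was 1.12 (adjusted p = 0.445).

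Prg2, the eosinophil major basic protein, was listed in 1 of 57 and 2 of 32 cells of SLE.yaa mice and in no cell of WT mice. Its levels were 41.3 and 52.5 vpm in SLE.yaa mice, against 0 and 0 vpm in WT mice. They rest on 12 depth-adjusted counts in 1 cell of SLE.yaa 1 and 8 in 2 cells of SLE.yaa 2, so no fold is given. The constant regions Ighg2c and Ighg2b also passed. Ighg2c stood at 61.9 and 45.9 vpm in SLE.yaa mice, against 0 and 0 vpm in WT mice, at least 40.8-fold higher against the same floor. It was above 0 in 24.6% and 21.9% of cells, against 28.3% and 20.8% of T cells of the same SLE.yaa mice. These shares are close to each other too and are not read as expression. Ighg2b stood at 55.0 and 138 vpm in SLE.yaa mice, against 0 and 0.777 vpm in WT mice, from 37 counts against 1 (ratio 181, counting interval 30.6 to 7353, which treats depth-adjusted counts within a cell as independent). Ighg2b was above 0 in 22.8% and 25.0% of cells, against 18.1% and 18.7% of other B cells and 10.0% and 9.91% of T cells of the same mice. Those T cells were less deep, at a median of 4716.5 and 3913.5 UMIs against 6685 and 6473.5. No switched heavy chain was recorded in marginal zone type cells (below), and the source of the Ighg2b RNA was not tested.

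Yaa copies distal X chromosome genes, and 1 of its 10 tested genes passed (all genes 0.187%). Tmsb4x, the actin-sequestering thymosin beta 4 (chromosome X, 167207093 to 167213479 in GRCm38.p6), rose to 10842 and 12725 vpm in SLE.yaa mice, against 4677 and 4219 vpm in WT mice (1.4, SE 0.15, adjusted p = 0.0438), and its log2 change was 0.80 in cells with 3 or 4 rule genes. In other B cells Tmsb4x rose by 1.14 (limma adjusted p = 0.0108). The list's median was 0.86 with 7 genes higher and 0 lower at an unadjusted p under 0.05 (all genes 4.04% higher). Trappc2 stood at 55.0 and 72.2 vpm in SLE.yaa mice, against 15.4 and 15.5 vpm in WT mice (1.52, adjusted p = 0.122). Tlr7, the receptor for single-stranded RNA, overlapped between the groups, at 48.1 and 118 vpm in SLE.yaa mice, against 51.8 and 36.5 vpm in WT mice (0.69, adjusted p = 0.584). In other B cells Tlr7 rose by 1.23 (adjusted p = 0.000146).

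Of 13 tested Sle1 interval genes, Cr2 was the 1 that passed (all genes 0.187%), and the median was −0.15 (all genes −0.07). Cd48 stood at 103 and 118 vpm in SLE.yaa mice, against 200 and 180 vpm in WT mice (−0.73, adjusted p = 0.240). Slamf6, a receptor of the same family, stood at 213 and 203 vpm in SLE.yaa mice, against 139 and 143 vpm in WT mice (0.53, adjusted p = 0.342). Among 17 tested genes of Toll-like receptor signalling 0 passed by limma, with 0 higher and 2 lower at an unadjusted p under 0.05 (all genes 4.04% and 6.11%) and a median of −0.16, and Irf5, a transcription factor downstream of Tlr7, stood at 141 and 78.8 vpm in SLE.yaa mice, against 186 and 178 vpm in WT mice (−0.73, adjusted p = 0.422).

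Of 25 B cell receptor signalling genes, Cr2, a coreceptor component, passed (all genes 0.187%). The list's median was −0.22 with 2 genes higher and 7 lower at an unadjusted p under 0.05 (all genes −0.07, 4.04% higher and 6.11% lower). The inhibitory receptors went both ways: Cd72 stood at 543 and 591 vpm in SLE.yaa mice, against 241 and 292 vpm in WT mice (1.07, adjusted p = 0.0697), and Siglecg at 272 and 230 vpm in SLE.yaa mice, against 452 and 432 vpm in WT mice (−0.80, adjusted p = 0.146). Malt1, a protease of antigen receptor signalling, stood at 230 and 243 vpm in SLE.yaa mice, against 392 and 460 vpm in WT mice (−0.82, adjusted p = 0.135). Cd81, a partner of Cr2 in the coreceptor, stood at 275 and 256 vpm in SLE.yaa mice, against 409 and 437 vpm in WT mice (−0.65, adjusted p = 0.219).

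Markers of other cells were low and differed between groups in part. The 10 monocyte and macrophage genes summed to 79.1 and 269 vpm in SLE.yaa mice, against 30.9 and 20.2 vpm in WT mice, with C1qc at 0 in all 4 mice and Lyz2 above 0 in 2 of 57 and 1 of 32 cells of SLE.yaa mice, against 6 of 235 and 5 of 313 cells of WT mice. Lyz2, the lysozyme of myeloid cells, stood at 27.5 and 85.3 vpm in SLE.yaa mice, against 6.61 and 3.89 vpm in WT mice (1.98, adjusted p = 0.234). The mean of SLE.yaa mice was the higher in 9 of the 10 monocyte and macrophage genes. The 4 that could be tested, Lyz2 among them, reached the filter of 10 vpm only through the SLE.yaa mice. The direction of their changes was therefore set by the filter and is not read as a result. The plasma cell genes summed to 4230 and 2999 vpm in SLE.yaa mice, against 2333 and 2520 vpm in WT mice, of which Jchain alone was 2046 and 459 vpm in SLE.yaa mice, against 3.31 and 7.0 vpm in WT mice. T cell genes summed to 48.1 and 45.9 vpm in SLE.yaa mice, against 34.2 and 75.4 vpm in WT mice, and erythroid genes to 13.8 and 0 vpm in SLE.yaa mice, against 1.10 and 2.33 vpm in WT mice. Of B cell genes, Ms4a1 (CD20) stood at 1259 and 1201 vpm in SLE.yaa mice, against 1551 and 1472 vpm in WT mice, and Cd79a, a receptor subunit, at 2950 and 3846 vpm in SLE.yaa mice, against 3346 and 2826 vpm in WT mice. The part of these markers in the 16 genes was not tested. Without cells holding Cd3e, Cd3g, Lyz2, C1qb, S100a8 or Jchain (65 cells left in SLE.yaa mice), the log2 changes were −1.52 for Cr2, 1.22 for Klf2 and 2.63 for Lgals1, with adjusted p of 0.128 each.

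The change between SLE.yaa and WT mice differed between marginal zone type cells and other B cells in 3 of 8271 genes (0.0363%), by limma on the differences within each mouse, with adjusted p = 0.0263 for each. At an unadjusted p under 0.05 there were 815 (9.85%). Levels here come from scaling both populations together. H3f3a, a histone H3.3 gene, stood at 1204 and 1259 vpm in marginal zone type cells of SLE.yaa mice, against 826 and 698 vpm in those of WT mice, and at 2292 and 2258 vpm in other B cells of SLE.yaa mice, against 2776 and 2571 vpm in those of WT mice (difference of log2 changes 0.92, SE 0.08).

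Actb, beta-actin, stood at 6764 and 5782 vpm in marginal zone type cells of SLE.yaa mice, against 4587 and 4371 vpm in those of WT mice, and at 8213 and 7440 vpm in other B cells of SLE.yaa mice, against 8679 and 7915 vpm in those of WT mice, where the groups overlapped (0.57, SE 0.05). Ly6a, the surface protein Sca-1 that interferon induces in mice, went the other way (−1.36, SE 0.13). It stood at 1175 and 1129 vpm in marginal zone type cells of SLE.yaa mice, against 1187 and 920 vpm in those of WT mice, and at 1247 and 1588 vpm in other B cells of SLE.yaa mice, against 545 and 441 vpm in those of WT mice. The groups were apart in other B cells, and within marginal zone type cells the groups overlapped. Ighd and the actin-binding Pfn1 (0.91 and 0.58, adjusted p = 0.0594 each), Lgals1 (2.41, adjusted p = 0.0633) and Fcer2a (1.25, adjusted p = 0.0633) were among the next and missed the threshold. In cells with 3 or 4 rule genes the difference was 0.08 for H3f3a (adjusted p = 0.911), 0.03 for Actb (adjusted p = 0.940) and −1.73 for Ly6a (adjusted p = 0.0619), and at 2000 to 6000 UMIs it was 0.30 for Actb (adjusted p = 0.401). No gene passed with a pseudocount of 1, with no filter, or in the narrower choices of cells.

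Heavy chains were sequenced separately from the expression that chose the cells. Of the 637 cells, 551 had a heavy chain, 51 and 27 in SLE.yaa mice, against 203 and 270 in WT mice. The table records 1 heavy chain and 1 constant region per cell, although naive B cells make IgM and IgD from the same transcript by splicing.

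No switched heavy chain was recorded in 549 marginal zone type cells with a constant region, which allows a pooled share of up to 0.546% (3 counts of 549). By mouse these were 0 of 50 and 0 of 27 chains in SLE.yaa mice, against 0 of 203 and 0 of 269 in WT mice, with exact upper 95% limits of 7.11% and 12.8% in SLE.yaa mice, against 1.80% and 1.36% in WT mice. In other B cells 39 and 51 chains were switched in SLE.yaa mice (2.22% and 3.17%), against 14 and 6 in WT mice (0.552% and 0.221%). These shares lie below the limits of the same mice, so a difference was not detectable at this depth within a mouse. The 549 recorded regions were IgM or IgD.

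IgD was recorded far more often in SLE.yaa mice. It was the recorded region of 11 of 50 chains (22.0%) and 8 of 27 chains (29.6%) in SLE.yaa mice, against 5 of 203 chains (2.46%) and 7 of 269 chains (2.60%) in WT mice. Both SLE.yaa mice lay above both WT mice, and the exact 95% intervals of 11.5 to 36.0% and 13.8 to 50.2%, against 0.804 to 5.65% and 1.05 to 5.29%, did not overlap. The log2 change of IGHD was 3.23 (edgeR quasi-likelihood test, adjusted p = 0.000162), and 1 of 2 isotypes passed (50.0%). IGHM, the remainder, had a log2 change of −0.37 (adjusted p = 0.0560).

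Other B cells differed in the same direction, by less on the log2 scale. IGHD was recorded in 34.7% and 42.4% of their chains in SLE.yaa mice, against 18.4% and 17.3% in WT mice (log2 change 1.11, edgeR adjusted p = 0.00231). By a test chosen after the values were seen, the change in marginal zone type cells was larger by 2.20 on the log2 scale (interaction term with the mouse as a term, edgeR adjusted p = 6.5e-05). It stayed between 2.12 and 2.29 with each mouse left out in turn. The term holds for the log2 scale, where the baseline in marginal zone type cells of WT mice was 5 and 7 chains. A difference in percentage points was not tested. Among cells with Fcer2a at 0 the percentages were 16.7% and 33.3% in SLE.yaa mice, against 1.84% and 1.81% in WT mice, and the log2 change was 3.57 (adjusted p = 0.00298). With 3 or 4 rule genes, 1 of 6 chains in SLE.yaa mice was IgD, too few for a call (3.78, adjusted p = 0.495).

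**Figure D4:**
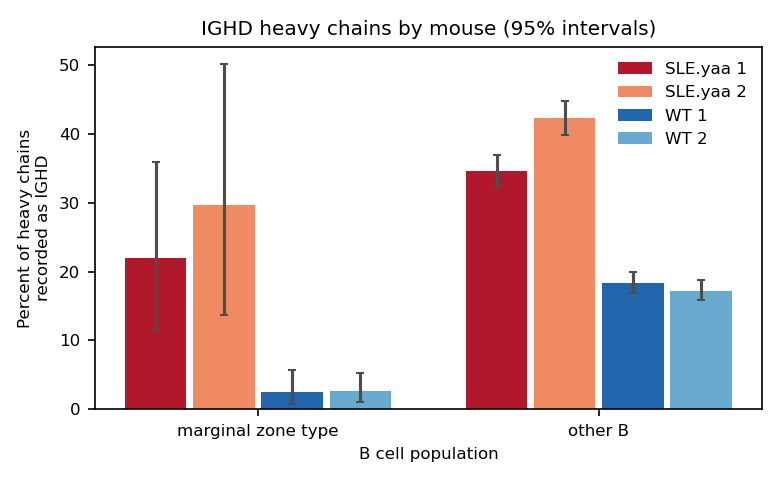
Percent of heavy chains whose recorded constant region was IGHD (vertical axis) in marginal zone type and other B cells, 1 bar per mouse with exact 95% intervals. In marginal zone type cells the bars stand at 22.0 and 29.6% in SLE.yaa mice and at 2.46 and 2.60% in WT mice, and in other B cells at 34.7 and 42.4% against 18.4 and 17.3%.

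Marginal zone type cells used IgM more often than other B cells of the same mouse. In SLE.yaa mice IgM made up 78.0% and 70.4% of their chains, against 63.1% and 54.5% in other B cells. In WT mice it made up 97.5% and 97.4%, against 81.1% and 82.5% in other B cells. The ratio was above 1 in 4 of 4 mice (log2 ratio 0.26, edgeR adjusted p = 0.00192, with the mouse as a term). It was 1 of 7 isotypes to pass (14.3%), with 2 at an unadjusted p under 0.05 (28.6%). The ratio of IGHD was −1.85 (adjusted p = 0.0626). With TMM factors the ratio of IGHM was 0.06 (adjusted p = 0.398).

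The heavy chains of the cells were nearly all different. The 551 chains held 547 different CDR3 sequences, the stretch encoded where V, D and J segments join, and 1 was found in marginal zone type cells of 2 mice. That sequence and its nearest relative are shown because they join IGHV11-2 to IGHJ1 on chromosome 12 with no added base. IGHV11 and IGHV12 chains are known in mice from B-1 cells that bind phosphatidylcholine. Among marginal zone type cells the first was found in SLE.yaa 2 and WT 1 (2 cells) and the next in WT 1 (2 cells), and 10 and 8 other B cells of SLE.yaa 2, WT 1 and WT 2 held them too. The IGHV12-3 chains each came from 1 cell. All are written 5′ to 3′ in lower case, as read from the deposited heavy-chain table, with bases added between segments in capitals.
IGHV11-2, IGHD2-1: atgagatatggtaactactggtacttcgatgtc
IGHV11-2, IGHD2-5: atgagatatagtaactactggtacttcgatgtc
IGHV12-3, SLE.yaa 2: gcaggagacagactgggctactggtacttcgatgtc
IGHV12-3, IGHJ2, WT 1: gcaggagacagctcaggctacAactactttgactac
IGHV12-3, IGHJ1, WT 1: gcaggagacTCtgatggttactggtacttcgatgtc

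These genes were rare. IGHV11-2 was used by 4 marginal zone type cells (0 and 1 in SLE.yaa mice, 3 and 0 in WT mice) and 24 other B cells, and IGHV12-3 by 3 (0 and 1, against 2 and 0) and 11. The 3 IGHV11-2 cells of WT 1 held 2 rearrangements.

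IgD and IgM chains of the same mouse are shown next because the recorded constant region separates the groups. For each mouse these are the IgD and the IgM chain nearest the median CDR3 length of all its marginal zone type chains. They were picked among chains with V segments at 100% germline identity and added bases at both joins. All are on chromosome 12, with added bases in capitals.
SLE.yaa 1, IgD, IGHV1-72: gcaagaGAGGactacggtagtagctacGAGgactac
SLE.yaa 1, IgM, IGHV1-69: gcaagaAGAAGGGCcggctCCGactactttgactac
SLE.yaa 2, IgD, IGHV1-82: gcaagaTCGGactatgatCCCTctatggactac
SLE.yaa 2, IgM, IGHV13-2: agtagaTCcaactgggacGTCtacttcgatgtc
WT 1, IgD, IGHV1-26: gcaagaAGAGGAAatggttacgaAtac
WT 1, IgM, IGHV1-18: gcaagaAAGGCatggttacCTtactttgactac
WT 2, IgD, IGHV1-64: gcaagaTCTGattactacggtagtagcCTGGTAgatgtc
WT 2, IgM, IGHV1-69: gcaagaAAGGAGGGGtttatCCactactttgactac

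Each was found in 1 cell. Added bases at both joins were a condition for choosing these 8 chains and are not a result.

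CDR3 was shorter in marginal zone type cells of 4 of 4 mice. Its mean length was 11.8 and 11.3 residues in marginal zone type cells of SLE.yaa mice and 11.5 and 11.5 residues in those of WT mice, against 12.3 and 12.2 residues in other B cells of SLE.yaa mice and 12.2 and 12.2 in those of WT mice. The mean difference within mice was −0.687 residues (SD 0.206, n = 4), with an exact two-sided sign-flip permutation p of 0.13, the smallest that 4 mice can give (0.45 adjusted over 9 chain measures). Bases between D and J were fewer too, by a mean difference of −0.565 (SD 0.259, 4 of 4 mice lower, the same exact p = 0.13). Leaving out IGHV11-2 and IGHV12-3 chains gave −0.694 residues. SLE.yaa and WT mice overlapped in the length within marginal zone type cells (exact permutation p = 1.0, n = 2 each).

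**Figure D5:**
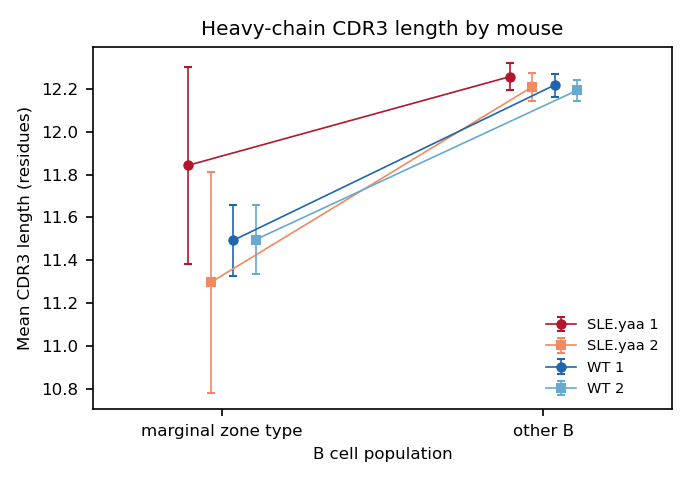
Mean heavy-chain CDR3 length in residues (vertical axis, not starting at 0) in marginal zone type and other B cells, 1 line per mouse, bars ± SE over cells. The lines of 4 of 4 mice are lower in marginal zone type cells, at 11.3 to 11.8 residues against 12.2 to 12.3 residues in other B cells.

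Chains with no added base at either join made up 0% and 7.41% in marginal zone type cells of SLE.yaa mice, against 1.90% and 1.78% in their other B cells, and 4.43% and 3.33% in those of WT mice, against 1.89% and 1.32% in their other B cells. In SLE.yaa 1 this was 0 of 51 chains. The mean difference of 2.07 percentage points was positive in 3 of 4 mice (exact sign-flip permutation p = 0.25).

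J segment use differed slightly. In SLE.yaa mice IGHJ4 was used in 31.4% and 33.3% of chains of marginal zone type cells, against 29.9% and 28.2% in other B cells. In WT mice it was used in 21.7% and 22.6%, against 28.7% and 30.7% in other B cells (log2 ratio −0.33, edgeR adjusted p = 0.0471). IGHJ2 was used in 25.5% and 25.9% in SLE.yaa mice, against 29.9% and 31.1% in their other B cells, and in 36.9% and 40.7% in WT mice, against 31.7% and 30.3% in their other B cells (log2 ratio 0.27, edgeR adjusted p = 0.0471). These were 2 of 4 segments (50.0%), and in both the direction was that of the WT mice while the SLE.yaa mice lay the other way. Without WT 1, WT 2 or SLE.yaa 2 neither passed, and without WT 1 and WT 2 in turn IGHJ4 stood at −0.20 and −0.23 and IGHJ2 at 0.18 and 0.10.

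No IGHV gene passed between marginal zone type and other B cells (0 of 74, 0.0%), by edgeR with each clone counted once per mouse and population. At an unadjusted p under 0.05 there were 7 (9.46%), and DESeq2 called 0. The smallest p belonged to IGHV10-1 (log2 ratio 1.48), IGHV1-53 (1.02) and IGHV6-3 (1.15), with adjusted p = 0.168 for each. IGHV10-1 was used in 3.92% and 3.70% of marginal zone type cells of SLE.yaa mice and 2.50% and 2.59% of those of WT mice, against 0.620 to 1.32% in other B cells of the 4 mice. Between SLE.yaa and WT mice 0 of 13 IGHV genes passed (0.0%), by edgeR, with 0 at an unadjusted p under 0.05 and 0 by DESeq2. Each of the 13 reached the filter of 5 clones only through the WT mice, as no IGHV gene had 5 clones in an SLE.yaa mouse. Genes used mainly in SLE.yaa mice could therefore not be tested.

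Most V segments were unmutated. The share at 100% germline identity was 88.2% and 92.6% in marginal zone type cells of SLE.yaa mice, against 98.0% and 97.4% in those of WT mice, and in other B cells it was 95.7% and 94.8% in SLE.yaa mice, against 97.6% and 98.1% in WT mice. Both SLE.yaa mice lay below both WT mice, by a mean of −7.30 percentage points, with an exact permutation p of 0.33, the smallest that 2 mice against 2 can give. It rests on 6 and 2 mutated chains in SLE.yaa mice, against 4 and 7 in WT mice, and with 3 or 4 rule genes the difference was 3.50 points.

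Few of the cells belonged to clones. Cells in clones of 2 or more numbered 1 of 51 (1.96%) and 2 of 27 (7.41%) in SLE.yaa mice, against 9 of 203 (4.43%) and 3 of 270 (1.11%) in WT mice, and the groups overlapped (exact permutation p = 0.667, n = 2 each). Marginal zone type cells occurred in 12 clones, 3 in SLE.yaa and 9 in WT mice, and 9 clones also held other B cells. In each SLE.yaa mouse 1 clone of IGHV1-72 and IGHJ4, of 13 and 10 cells, joined a marginal zone type cell to cells annotated PC (2 and 6), with 10 and 2 further cells that are not in the expression table. These authors' clones hold 9 and 6 different CDR3 sequences, so they are not all 1 rearrangement. The 3 clones with 2 or more marginal zone type cells were from WT 1, and those that are not IGHV11-2 are shown, on chromosome 12, because they are the clearest expansions within the population.
IGHV13-2, IGHJ1, WT 1: agtagaGAGGActacgggtacttcgatgtc
IGHV5-4, IGHJ1, WT 1: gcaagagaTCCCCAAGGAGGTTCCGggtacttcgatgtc

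Each of these sequences was read in 2 marginal zone type cells and in none of the other B cells they are set beside. The IGHV13-2 clone held 1 more cell with the same CDR3, which is not in the expression table. The heavy-chain table names no D segment for these sequences, so the bases between V and J are in capitals.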

How the data were processed

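Expression was deposited as natural log values: each equals ln(1 + n) with n whole to within 1.64e-11. Those depth-adjusted values sum to 2663 to 6382 per cell, while UMI counts span 1002 to 26847. The authors' method of adjustment is not stated. The design had allowed for raw counts, and the test for other values was used. Per cell, the authors deposited the UMI count, mitochondrial percent, cell cycle scores and a cell type. The deposited heavy-chain table names segments, 1 constant region per cell and clones, with V identity as a fraction. Cell Ranger 5.0.0, Seurat 4.0.0 and the build GRCm38 (mm10) are listed in the submitters' processing notes.

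The 15 rows without a gene name (0.0440% of values) were left out. Values were averaged over the cells of a mouse, scaled to 1000000 (vpm) with TMM factors, and tested with limma 3.58.1 (R 4.3.3, trend) on log2 of vpm plus 10, two-sided, for genes reaching 10 vpm in 2 or more mice, with Benjamini-Hochberg adjustment at 0.05. Receptor counts per mouse were tested with edgeR 4.0.16 quasi-likelihood fits, with DESeq2 1.42.0 as an alternative, and IGHV genes needed at least 5 clones in at least 2 sums. Shares have exact Clopper-Pearson 95% intervals, and a pooled count of 0 a limit of 3 counts, for counting error only. The scripts were tested on simulated data. At a simulated 2-fold change 0 of 200 changed genes were recovered, both between the groups and for the difference of changes. At 4-fold 176 and 150 of 200 were recovered. Genes that did not pass may therefore still differ by about 2-fold. Sums of deposited values behind a mouse's mean were 286306 and 156764 in SLE.yaa mice, against 923823 and 1247484 in WT mice, so the SLE.yaa means are the less precise. Groups come from the labels, p-values measure the spread between 2 mice per group, and age differs with the group. Genes named are those past the threshold without overlap, outside immunoglobulin segments and the rule, plus members of 25 gene lists. Ighg2b, Ighg2c and the interaction term for IGHD were added after their values were seen. The cells, lists and rule were chosen with earlier results of these data known. Alternatives varied scaling, pseudocount, filter, cells and mice. Gene positions are from RefSeq GRCm38.p6. Some list genes enter the counts but are not reported here by name.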

Additional observations from a re-analysis of the deposited data

Results flagged for a closer look

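In 4 results the change between SLE.yaa and WT mice differed between marginal zone type cells and other B cells of the same mice, by a test of that difference. For H3f3a the log2 change was larger by 0.92 and for Actb by 0.57 in marginal zone type cells. For Ly6a it was −1.36, where the groups were apart in other B cells and overlapped in marginal zone type cells. In cells with 3 or 4 rule genes these differences were 0.08 (adjusted p = 0.911) for H3f3a, 0.03 (adjusted p = 0.940) for Actb and −1.73 (adjusted p = 0.0619) for Ly6a. For IGHD as the recorded constant region of the heavy chain it was 2.20 on the log2 scale, by a test chosen after the values were seen. A difference in percentage points was not tested for IGHD. With all members the first 3 are by limma (adjusted p = 0.0263 each, the 3 of 8271 genes that passed) and IGHD is by edgeR (adjusted p = 6.5e-05). Values by mouse stand with each result above.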

How the results depend on the processing

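No paired analysis was possible because SLE.yaa and WT mice share no litter or batch in the labels and replicate numbers only follow the order of the records. Comparisons of both populations within a mouse kept the mouse as a block. Without the replicate block, IGHM was 0.29 (adjusted p = 0.489), IGHD −1.13 (adjusted p = 0.452), IGHJ2 0.27 and IGHJ4 −0.32 (adjusted p = 0.0219 each), 0 IGHV genes passed, and CDR3 length differed by −0.687 residues (exact permutation p = 0.0286). The 16 genes became 1 with no TMM factors, 0 with a pseudocount of 1, with no filter, without age-associated genes, at 2000 to 6000 UMIs, without genes of other cells or with Fcer2a at 0 (chosen after seeing the data), and 1673 with 3 or 4 rule genes, where 9 cells make up the SLE.yaa means. The 3 differences of changes became 5 with no TMM factors, 13 at 30 vpm and 0 in those other settings, the 3 or 4 rule genes included. With 1 mouse left out the counts were 30 to 2267 and 17 to 2466, since the spread then comes mainly from the group with 2 mice, and IGHM ratios were 0.26 to 0.31 (without WT 1 0.30, adjusted p = 0.0692). IGHJ2 lay between 0.10 and 0.31 and IGHJ4 between −0.38 and −0.20. At 2000 to 6000 UMIs, IGHJ2 was 0.27 and IGHJ4 −0.36, Il4i1 −0.31, identity against other B cells 0.00315 and between SLE.yaa and WT mice −0.0271 percentage points, and shares of B cells 1.16%, 0.795%, 5.76% and 6.65%. With TMM factors IGHM was 0.0565, IGHJ2 0.27 and IGHJ4 −0.18. With 3 or 4 rule genes, IGHD was 3.78 between SLE.yaa and WT mice, −3.65 against other B cells (adjusted p = 0.0312) and 2.98 for the difference. There IGHJ2 was 0.22, IGHJ4 −0.40, 4 IGHV genes passed, CDR3 differed by −0.481 residues, identity by 0.0292 and 0.0181, unmutated shares by 1.73 and 3.50 points (against other B cells and between SLE.yaa and WT mice), clone shares by −1.64 points, Il4i1 by −1.39 and Fcer2a by −0.64. Shares of B cells were 0.203%, 0.163%, 3.07% and 3.94% with 3 or 4 rule genes and 19.0%, 17.1%, 25.0% and 26.9% with 1 or more. IGHV genes between SLE.yaa and WT mice could not be fitted with 3 or 4 rule genes, without WT 1 or WT 2, or with at least 10 clones. The cause of these shifts was not tested. The number of cells limits the SLE.yaa means (57 and 32, against 235 and 313 in WT mice): 1 depth-adjusted count was worth 3.49 and 6.38 vpm in SLE.yaa mice, against 1.08 and 0.802 vpm in WT mice.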

Other observations

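Over all genes the median log2 change was −0.07, with 4.04% higher and 6.11% lower at an unadjusted p under 0.05 by limma. Among lists not described above, 0 of 24 interferon-stimulated genes passed (median 0.13), with 3 higher and 2 lower at an unadjusted p under 0.05 by limma. Isg15, a ubiquitin-like interferon target, stood at 41.3 and 26.3 vpm in SLE.yaa mice, against 100 and 75.4 vpm in WT mice (−1.17, adjusted p = 0.234). In other B cells Isg15 was higher by 0.56 (adjusted p = 0.00680). No gene passed by limma among 13 interferon-gamma GTPase genes (median 0.23, 2 higher and 1 lower at an unadjusted p under 0.05) or 10 MHC class II genes (0.11, 1 higher and 0 lower). The same held for 3 germinal centre genes (0.45, 1 higher), 3 B-1 genes (1.21, 2 higher), 2 transitional genes (−0.15, 0) and 3 proliferation genes (0.19, 0). Of the genes counted as higher, Iigp1, Fas, Spn and Zbtb32 reached 10 vpm only in the SLE.yaa mice. Their direction and the B-1 median are therefore not read as a result. Zbtb32, a transcription factor known from B-1 and memory cells, stood at 34.4 and 26.3 vpm in SLE.yaa mice, against 5.51 and 1.55 vpm in WT mice (1.58, adjusted p = 0.211). Neutrophil genes summed to 10.3 and 32.8 vpm in SLE.yaa mice, against 28.7 and 2.33 vpm in WT mice, NK cell genes to 0 and 0 vpm in SLE.yaa mice, against 5.51 and 2.33 vpm in WT mice, and platelet genes to 3.44 and 6.56 vpm in SLE.yaa mice, against 3.31 and 4.66 vpm in WT mice.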
